A study of Mus musculus with 48 samples.

Results

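Hspa5, Sdf2l1, Dnajb9, Herpud1, Xbp1, Atf4, Atf3, Ddit3, Trib3 and Asns are 10 genes of the unfolded protein response and the integrated stress response. They were chosen by name, for their known roles but with earlier results of these data known, from the 53465 genes of a mouse count table. RNA was measured by sequencing in NeuroD1-positive enteroendocrine cells, the hormone-secreting cells of the gut epithelium, which were sorted as 48 libraries from 17 mice after vertical sleeve gastrectomy (VSG) or sham surgery. Each region (duodenum, the top 5 cm of the small intestine; ileum, its bottom 15 cm; and colon with rectum) was represented by 6 VSG libraries, 5 from sham mice fed ad libitum and 5 from weight-matched sham mice. All mice, controls included, were lean males on a C57BL6 background, aged about 20 weeks around surgery, that carried Neurod1-cre and an EYFP reporter. The cells collected were thus those in which the Neurod1 promoter had at some time driven Cre. The VSG mice had 70 to 80% of the stomach removed and received weekly vitamin B12, the sham ad libitum mice were opened and sutured and ate freely, and the sham weight-matched mice received rationed food to follow the weight of the VSG mice. Every group had liquid diet around surgery and chow afterwards. At 6 weeks after surgery all groups were fasted overnight, and tissue was taken about 15 min after glucose by gavage at 3 g/kg.

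The unfolded protein response raises the folding capacity of the endoplasmic reticulum (ER) when unfolded proteins accumulate there, through the membrane sensors IRE1, PERK and ATF6. IRE1 splices Xbp1 mRNA, PERK and other kinases phosphorylate the translation factor eIF2, and phosphorylated eIF2 favours translation of ATF4, which is the shared step of the integrated stress response. Secretory cells such as enteroendocrine cells depend on ER chaperones to fold prohormones. Counts per gene hold neither the splicing of Xbp1 nor the translation of Atf4, so the values below are total mRNA levels.

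Among the members are ER proteins, transcription factors and targets downstream of them. Hspa5 (BiP) is the main ER chaperone of the Hsp70 family, Sdf2l1 and Dnajb9 are ER proteins that work with it, and Herpud1 belongs to the machinery of ER-associated degradation. Xbp1, Atf4, Atf3 and Ddit3 (CHOP) encode transcription factors of the basic leucine zipper type. Trib3 is a pseudokinase induced by ATF4 and CHOP, and Asns (asparagine synthetase), the enzyme that makes asparagine, is a classic ATF4 target. All are protein-coding, and in GRCm38 they lie on 9 chromosomes, with Hspa5 at chr2:34771970-34777547, Sdf2l1 at chr16:17130138-17132383, Dnajb9 at chr12:44205559-44210326 and Herpud1 at chr8:94386438-94395377. Xbp1 lies at chr11:5520659-5525893, Atf4 at chr15:80255184-80257541, Atf3 at chr1:191170296-191218039 and Ddit3 at chr10:127290774-127296288. Trib3 lies at chr2:152337422-152344032 and Asns at chr6:7675169-7693254, and each value is for a whole gene.

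The promoters of 4 members are shown because they hold the elements through which these responses are known to act. The RefSeq promoter windows of 300 bases (assembly GRCm38.p6) of all 10 members and of 32851 promoters in all were searched on both strands. The ER stress response element ERSE, CCAAT and CCACG with 9 bases between them, lay in 1 member, Hspa5, and in 0.119% of all promoters. ERSE-II, ATTGG and CCACG with 1 base between them, was found in 1 member, Herpud1, and in 0.0365% of promoters, and it shares its last 5 letters with ERSE. The core TGACGTGG of the unfolded protein response element was in 0 members and in 0.676% of promoters. The element bound by ATF4 with C/EBP partners (CARE, TGATG and AA with 1 base between them) was in 4 members, Atf3, Trib3, Asns and Herpud1, and in 3.97% of promoters. A match describes letters only. The stretches below are written 5′ to 3′ on the strand of the gene and end before the RefSeq transcription start. Capitals mark ERSE in Hspa5 (chr2:34772013-34772055, plus strand) and CARE and then ERSE-II in Herpud1 (chr8:94386305-94386399, plus strand). They also mark CARE in Asns (chr6:7693213-7693244, minus strand) and in Atf3 (chr1:191183424-191183455, minus strand). In Atf3 and Herpud1 the CARE reads on the opposite strand.
Hspa5: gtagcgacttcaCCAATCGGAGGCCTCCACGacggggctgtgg
Herpud1: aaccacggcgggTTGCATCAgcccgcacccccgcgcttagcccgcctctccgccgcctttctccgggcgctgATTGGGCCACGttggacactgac
Asns: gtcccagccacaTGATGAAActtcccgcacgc
Atf3: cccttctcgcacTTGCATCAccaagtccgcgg
In Trib3 the match lay after the RefSeq start, at positions 14 to 21 (chr2:152344039-152344046), and is not printed. The RefSeq starts differ from the ends of the gene spans given above. By those spans the Hspa5, Asns and Atf3 stretches lie inside the gene, and the Trib3 match lies before it.

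Total counts were 4648651 to 17182463 per library, and 15126 genes, all 10 members among them, passed the filter on low counts. Levels are CPM, the count of a gene relative to the library total after TMM scaling, an adjusted p is from edgeR's quasi-likelihood test with Benjamini-Hochberg adjustment over all 15126 genes, and a gene was called where it fell under 0.05. The summed CPM of 10 enteroendocrine markers was 12127 to 99506 per library, its lowest value being the sham weight-matched duodenum library of mouse 27, in which 10 enterocyte markers summed to 49798. Chga and Chgb carried this sum, at means of 17232 and 31873 CPM in duodenum and 21876 and 30132 CPM in colon. The other 8 markers had lower means in colon than in duodenum, among them Neurod1 (254 and 658 CPM), Scg2 (31.5 and 1090.1 CPM), Pcsk1 (113 and 933 CPM) and Cpe (529 and 1572 CPM), and their part in the differences between regions given below was not tested. Goblet markers had a median of 9548 CPM in colon, 3755 in duodenum and 4101 in ileum, enterocyte markers 580 in colon, 7379 in duodenum and 11775 in ileum, and Paneth markers 18.3, 310.3 and 2574. The sum of 10 plasma and immune cell markers had medians of 124 CPM in duodenum, 893 CPM in ileum and 15.7 CPM in colon, most of it Cd74 (means of 293, 769.9 and 40.7 CPM), with Ptprc at 0 in 1 library and Jchain and Mzb1 at 0 in 37 and 45 of the 48. The 8 acinar markers had summed medians of 6.43, 4.84 and 50.5 CPM, with Cela1 at a mean of 63.6 CPM in colon and Prss1 and Amy2a5 at 0 in all 48 libraries. For mouse 12 the description codes of ileum and colon are crossed against the tissue labels, which were used here, and without these libraries 3, 7 and 5 members were called between regions, as with them. The colon was dissociated in 30 mM EDTA and the small intestine in 15 mM, so region and dissociation cannot be told apart, and in sorted bulk cells neither can fewer cells of a type from less RNA per cell.

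Per length of transcript, Hspa5 was the most abundant member, at a mean of 121 CPM per kb of exon, above 98.8% of the tested genes. Atf4 (54.2 CPM per kb), Xbp1 (48.3) and Herpud1 (41.8) followed, at percentiles 95.4 to 96.6 of the tested genes. Asns (21.4), Dnajb9 (18.1) and Sdf2l1 (16.3) formed a middle range. Atf3 (7.33), Ddit3 (4.96) and Trib3 (1.75) were the lowest, and Trib3 stood above only 32.8% of tested genes. The counts behind these levels were 1324 to 13240 per library for Hspa5 but 16 to 176 for Ddit3 and 0 to 108 for Trib3, so the last genes carry more counting error. The exons of Ddit3 share 68 bases with Mars on the opposite strand, and the sources used here do not state whether counting used the strand, so the Ddit3 level is uncertain.

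Wherever a member was called between regions, it was lower in the more distal one. Between ileum and duodenum, 3 members were lower and 0 higher, where 33.8% of all genes were called and 16.6% were called lower. Between colon and duodenum 7 members were lower and 0 higher, beside 55% of genes called and 28.3% called lower. Between colon and ileum 5 were lower and 0 higher, beside 49.2% called and 25.4% called lower. The median log2 fold change of the members was -0.084, -0.55 and -0.39 in these comparisons, while that of all tested genes was 0.0045, -0.015 and -0.011. The plot of fold changes between regions sets the 10 members side by side.

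**Figure D1:**
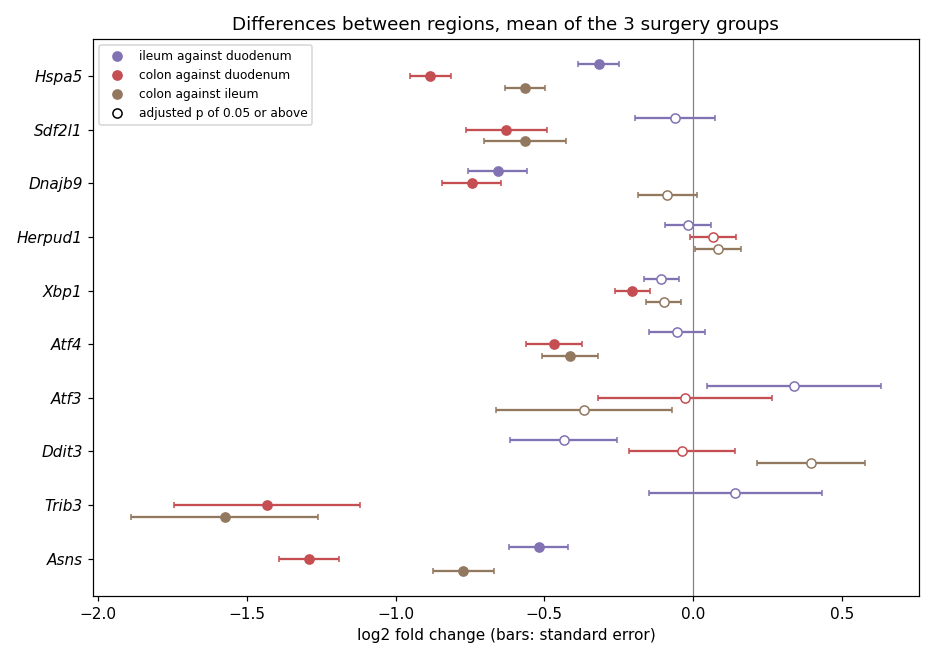
Log2 fold change of each member between regions (x axis, first region against second, averaged over the 3 surgery groups), with bars for the standard error. Filled points passed an adjusted p of 0.05 in edgeR's quasi-likelihood test; all 15 filled points lie left of zero, with Trib3 and Asns farthest in colon and Herpud1, Atf3 and Ddit3 open throughout.

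Hspa5 fell at each step. Its lowest, median and highest levels were 545, 647 and 774 CPM over 16 duodenum libraries, 365, 533 and 624 CPM over 16 ileum libraries, and 254, 366 and 431 CPM over 16 colon libraries. All 16 colon libraries lay below every duodenum library, and the level was lower in ileum than in duodenum in 15 of 15 mice. The log2 fold change was -0.32 (SE 0.069, adjusted p = 0.000242) from duodenum to ileum, -0.88 (SE 0.069, adjusted p = 1.16e-15) from duodenum to colon and -0.57 (SE 0.069, adjusted p = 1.26e-09) from ileum to colon.

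Dnajb9, a co-chaperone that also restrains IRE1, had lowest, median and highest levels of 47.1, 61.4 and 98.7 CPM in duodenum, 25.4, 39.8 and 54.9 CPM in ileum and 24.5, 36.7 and 45.9 CPM in colon. It was lower in ileum than in duodenum (log2 fold change -0.66, SE 0.099, adjusted p = 5.85e-07), and ileum and colon differed by -0.09 (SE 0.10, adjusted p = 0.501), with 8 of 16 mice higher and 8 lower in colon. Sdf2l1 was called lower in colon only, against both other regions. It held 13.7, 18.6 and 38.2 CPM in duodenum, 10.8, 18.4 and 36.0 CPM in ileum and 7.63, 14.1 and 17.6 CPM in colon. Its log2 fold change was -0.06 (SE 0.13, adjusted p = 0.775) between ileum and duodenum and -0.57 (SE 0.14, adjusted p = 0.000556) between colon and ileum, lower in colon in 16 of 16 mice although the ranges overlapped. With the second library index as a covariate the latter was -0.43 (adjusted p = 0.0566).

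Herpud1 passed in no region comparison. Its medians were 96.5 CPM in duodenum, 94.1 CPM in ileum and 96.7 CPM in colon, within a range of 71.0 to 139.7 CPM over all libraries. Its log2 fold changes lay between -0.02 and 0.08 (SE 0.077 each, adjusted p 0.388 to 0.894). This gene was the member with the ERSE-II and CARE matches printed above.

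Among the transcription factors, Xbp1 was the steadiest. The lowest, median and highest levels of Xbp1 were 148, 167 and 189.8 CPM in duodenum, 131, 155 and 205 CPM in ileum and 123, 148 and 169 CPM in colon. Colon was lower than duodenum by a log2 fold change of -0.20 (SE 0.059, adjusted p = 0.00264), in 14 of 15 mice and with overlapping ranges. With the second library index as a covariate, which partly coincides with region because 12 duodenum libraries shared one value and 11 colon libraries another, the value was -0.17 (adjusted p = 0.363). Neither comparison with ileum passed the threshold (log2 fold change -0.11, adjusted p = 0.162, against duodenum, and -0.10, adjusted p = 0.167, for colon against ileum).

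Atf4 was lower in colon than in either part of the small intestine. It ranged from 94.5 to 202 CPM in duodenum (median 138), from 101 to 189 CPM in ileum (median 135) and from 58.9 to 144 CPM in colon (median 103). Colon differed from duodenum by a log2 fold change of -0.47 (SE 0.094, adjusted p = 3.52e-05) and from ileum by -0.41 (SE 0.094, adjusted p = 0.000241), and 15 of 16 mice were lower in colon than in ileum. With the index covariate the first of these was -0.09 (adjusted p = 0.785).

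Atf3 and Ddit3, the factors induced most sharply in acute stress, passed in no region comparison. Atf3 spread widely within each region, from 5.66 to 37.1 CPM in duodenum, 4.12 to 71.3 CPM in ileum and 5.34 to 25.3 CPM in colon, and its log2 fold changes were 0.34, -0.03 and -0.37 (SE 0.29 each, adjusted p 0.318 to 0.946). Ddit3 had medians of 9.46 CPM in duodenum, 6.05 CPM in ileum and 9.11 CPM in colon. Its log2 fold change was -0.44 (SE 0.18, adjusted p = 0.057) from duodenum to ileum and 0.40 (SE 0.18, adjusted p = 0.0669) from ileum to colon. With the mouse as a block these became -0.45 (adjusted p = 0.0431) and 0.43 (adjusted p = 0.0379), and 13 of 16 mice were higher in colon than in ileum. Leaving out mouse 16, 17, 18, 21, 28 or 29 also took the first below 0.05 (adjusted p 0.0195 to 0.049), and leaving out mouse 16 or 18 the second (0.0244 to 0.0305). Over the 10 alternatives the first lay between -0.47 and -0.23 and stayed uncalled under 7, with adjusted p up to 0.735. The second lay between 0.39 and 0.51 and stayed uncalled under 8. On omission of a mouse the adjusted p reached 0.145 for the first and 0.148 for the second.

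Downstream of ATF4, Trib3 and Asns had the largest differences of the 10. Trib3 had medians of 3.69 CPM in duodenum and 3.89 CPM in ileum but 1.31 CPM in colon, where no library exceeded 3.84 CPM and 1 library had 0 counts, which allows up to 0.393 CPM (before TMM scaling) from counting error alone. Its log2 fold change was -1.43 (SE 0.31, adjusted p = 0.000112) for colon against duodenum and -1.57 (SE 0.32, adjusted p = 3.88e-05) for colon against ileum, lower in 14 of 15 and in 15 of 16 mice. The index covariate moved the first to -2.83 (adjusted p = 0.000135).

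Asns fell in every step along the gut. Its lowest, median and highest levels were 44.4, 82.7 and 117 CPM in duodenum, 35.2, 54.6 and 91.6 CPM in ileum and 21.9, 34.8 and 41.7 CPM in colon. The level was lower in ileum than in duodenum in 15 of 15 mice (log2 fold change -0.52, SE 0.10, adjusted p = 4.52e-05) and lower in colon than in ileum in 16 of 16 mice (-0.77, SE 0.10, adjusted p = 9.18e-09). Colon and duodenum differed by -1.29 (SE 0.10, adjusted p = 1.53e-15), and every colon library lay below every duodenum library. With the index covariate the ileum against duodenum value was -0.44 (adjusted p = 0.122).

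Hspa5, Dnajb9 and Asns were the 3 members whose colon and duodenum libraries did not overlap, a property of 9.75% of all tested genes. No member had separate ranges between ileum and duodenum (1.46% of genes) or between colon and ileum (7.14%). The plot of levels in all libraries shows these separations together with the spread of the low genes.

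**Figure D2:**
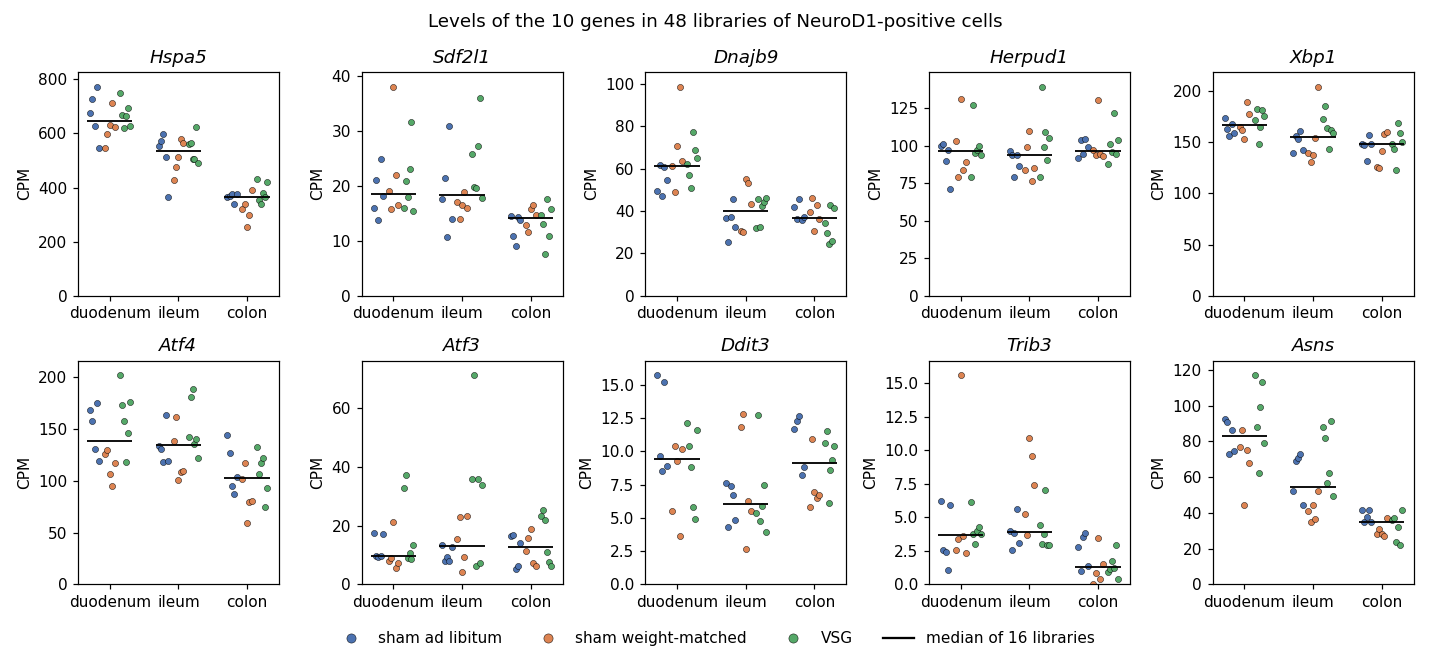
CPM (y axis, linear from zero) of the 10 members in each of 48 libraries by region (x axis), coloured by surgery group, with a line at the median of 16 libraries. Hspa5, Dnajb9 and Asns in colon lie wholly below duodenum, Herpud1 keeps medians of 94.1 to 96.7 CPM, and single libraries stand high for Trib3 (15.6 CPM) and Atf3 (71.3 CPM).

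Related genes were taken as lists of known function, chosen with earlier results of these data known, and their counts stand beside the shares of all genes called given above. Of 20 other ER chaperones and folding enzymes, 15 were lower and 2 higher in colon than in duodenum (55% of all genes called, 28.3% lower), 14 were lower and 2 higher in colon than in ileum (49.2% called, 25.4% lower), and 7 were lower and 1 higher in ileum than in duodenum (33.8% called, 16.6% lower). The median log2 fold changes of the list were -0.42, -0.38 and -0.078. Ero1lb, an oxidase that forms disulfide bonds in secretory cells, was the most reduced in colon against duodenum (log2 fold change -2.03, SE 0.17, adjusted p = 1.31e-14, means of 4.67 and 19.3 CPM), followed by the ER stress-induced secreted factor Manf (-0.90, SE 0.078, adjusted p = 4.46e-14). Sdf2, the paralogue of Sdf2l1, went the other way, with means of 25.1 CPM in colon and 17.3 CPM in duodenum (0.55, SE 0.10, adjusted p = 1.24e-05).

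Of 18 tested genes of ER-associated degradation and of transport into and out of the ER (20 listed), 11 were lower and 3 higher in colon than in duodenum. In colon against ileum 9 were lower and 1 higher, and in ileum against duodenum 6 were lower and 0 higher. The shares of all genes called lower were 28.3%, 25.4% and 16.6% in the same order. Sec24d, a coat protein of vesicles leaving the ER, had means of 53.5 CPM in colon and 108 CPM in duodenum (log2 fold change -0.98, SE 0.16, adjusted p = 8.72e-07). Sel1l, the adaptor of the HRD1 ubiquitin ligase, was the most reduced of them in ileum against duodenum (-0.43, SE 0.062, adjusted p = 2.34e-07).

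Of 10 sensors and transducers, 4 were higher and 2 lower in colon than in duodenum, and 3 were higher and 2 lower in colon than in ileum, numbers near the 55% and 49.2% of all genes called. Ern2, the IRE1 paralogue of mucosal epithelium, had means of 45.7 CPM in colon and 12.6 CPM in duodenum (log2 fold change 1.85, SE 0.16, adjusted p = 5.75e-14), and Creb3l1, a membrane-bound factor of the ATF6 type, was higher in colon too (log2 fold change 1.72, SE 0.095, adjusted p = 3.52e-21). Its relatives Creb3l3 (5.07 and 128 CPM, log2 fold change -4.68, SE 0.32, adjusted p = 1.74e-16) and Creb3l2 (25.8 and 83.1 CPM, -1.67, SE 0.13, adjusted p = 1.92e-15) were lower in colon. The summed goblet markers were higher and the enterocyte markers lower in colon as given above, and their part in these differences was not tested. The ubiquitous Ern1, Eif2ak3 (PERK) and Atf6 differed between colon and duodenum by -0.14, 0.24 and -0.12, of which Eif2ak3 alone was called (adjusted p = 0.0121).

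Of 22 tested targets of ATF4 and CHOP other than the members (24 listed), 8 were higher and 7 lower in colon than in duodenum, where 55% of all genes were called, and the median log2 fold change was 0.0077. Nupr1, a small stress-induced nuclear protein, had means of 185 CPM in colon and 4.88 CPM in duodenum (log2 fold change 5.23, SE 0.21, adjusted p = 2.51e-24), and the secreted glycoprotein Stc2 11.5 and 0.619 CPM (4.24, SE 0.39, adjusted p = 3.51e-13). Slc3a2, the heavy chain of amino acid exchangers, was lower in colon (53.5 against 96.6 CPM, -0.85, SE 0.12, adjusted p = 3.84e-08), as was the stress cytokine Gdf15 (1.99 against 3.86 CPM, -0.95, SE 0.33, adjusted p = 0.0131). Thus Nupr1 and Stc2 were higher in colon, where Trib3 and Asns were lower.

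Of 11 enzymes of amino acid and one-carbon metabolism, 6 were lower and 2 higher in colon than in duodenum (55% of all genes called, 28.3% lower). Aldh18a1, which starts proline synthesis from glutamate, had means of 38.5 and 121 CPM (log2 fold change -1.65, SE 0.093, adjusted p = 8.88e-21). The transaminase Gpt2 had means of 22.3 and 5.09 CPM (2.13, SE 0.15, adjusted p = 1.38e-17). Of 12 tRNA synthetases, 9 were lower and 0 higher in colon than in ileum (49.2% of all genes called, 25.4% lower). In colon against duodenum 4 were lower and 0 higher (55% called, 28.3% lower). In ileum against duodenum 5 were higher and 1 lower (33.8% called, with 2606 of 15126 genes higher). Nars, which charges the tRNA for asparagine, had means of 153 CPM in ileum, 101 CPM in duodenum and 84.7 CPM in colon, a course unlike that of Asns.

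Among the 9 eIF2 kinases and regulators, 2 were higher and 2 lower in colon than in duodenum, and 2 were higher and 4 lower in colon than in ileum, where 55% and 49.2% of all genes were called. Eif2ak4 (GCN2), the kinase that senses uncharged tRNA, was higher in colon (16.2 against 10.1 CPM, log2 fold change 0.69, SE 0.14, adjusted p = 2.66e-05), and Ppp1r15b, the constitutive eIF2 phosphatase subunit, was lower (126 against 165 CPM, -0.40, SE 0.069, adjusted p = 1.75e-06). The stress-induced subunit Ppp1r15a was lower in ileum than in duodenum (20.7 against 31.5 CPM, -0.67, SE 0.23, adjusted p = 0.0199).

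The comparisons of surgery asked whether the response differed after VSG, against freely fed and against weight-matched sham mice; the contrasts share groups and are not independent of each other. Averaged over the 3 regions, VSG and sham ad libitum mice differed in 0 members (0% of all genes called) by edgeR, and in 0 by DESeq2 and by limma voom. Atf3 was the 1 member at an unadjusted p under 0.05 in edgeR, beside 5.53% of all genes. VSG and sham weight-matched mice differed in 1 member, Asns, which was higher after VSG (0.245% of genes called and 0.132% called higher). In that edgeR fit 4 members had an unadjusted p under 0.05, beside 9.92% of all genes. This fit takes the libraries of a mouse as independent, and Asns was called by DESeq2 too (adjusted p = 0.0201) but not with the mouse as a random effect in limma voom (adjusted p = 0.372) or on counts summed per mouse (adjusted p = 0.477). The sham groups differed in 0 members (0.0529% of genes called), again by all of these tools. In edgeR 2 members, Asns and Atf4, had an unadjusted p under 0.05, beside 6.39% of all genes. The members' median log2 fold changes were 0.059, 0.12 and 0.029 in the same order, and those of all genes 0.0084, 0.0021 and 0.0072.

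**Figure D3:**
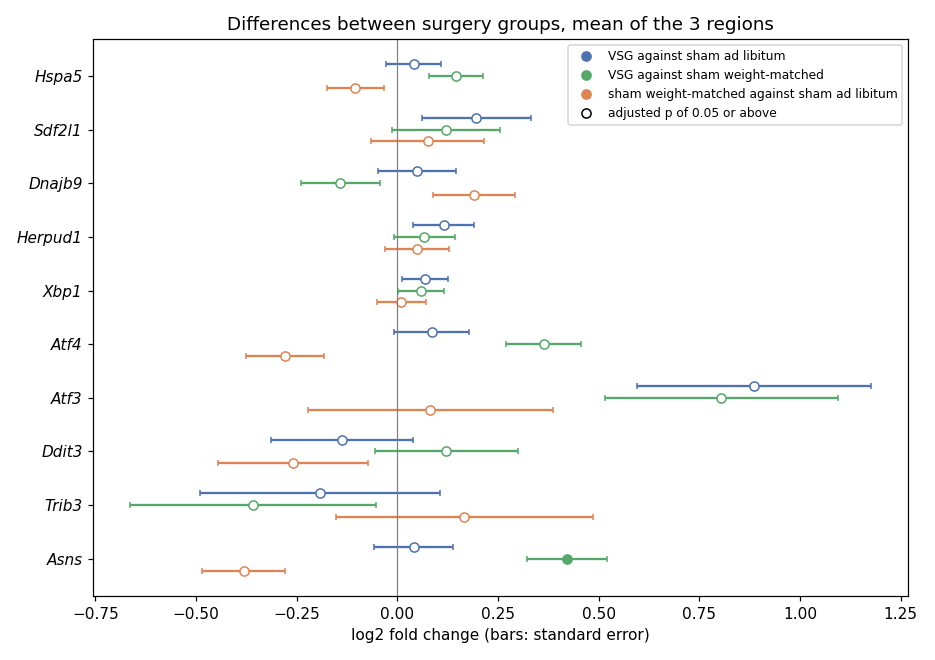
Log2 fold change of each member between surgery groups (x axis, averaged over the 3 regions), with bars for the standard error. Asns between VSG and sham weight-matched mice (0.42) is the single filled point past an adjusted p of 0.05 in edgeR's quasi-likelihood test; Atf3 lies farthest right, with bars of about 0.29.

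Asns had its lowest median in the weight-matched mice in each of the 3 regions. In ileum it was 35.2, 36.3, 40.9, 44.1 and 52.1 CPM in the 5 sham weight-matched libraries and 44.7, 52.3, 68.8, 70.8 and 72.7 CPM in the 5 sham ad libitum libraries. The 6 VSG ileum libraries ran from 49.6 to 91.6 CPM (median 71.97). Thus 5 of the 6 VSG libraries lay above every weight-matched library, and 4 of the 5 weight-matched libraries lay below every sham ad libitum library.

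In duodenum the weight-matched values of Asns were 44.4, 68.2, 75.4, 76.9 and 86.2 CPM and the sham ad libitum values 72.9, 74.6, 86.3, 90.8 and 92.8 CPM. The VSG duodenum libraries ran from 62.5 to 117 CPM (median 93.6), 4 of the 6 above every weight-matched library. In colon the weight-matched values were 26.8, 28.3, 28.4, 31.1 and 37.2 CPM, the sham ad libitum values 34.8, 34.9, 38.0, 41.6 and 41.7 CPM and the VSG values 21.9 to 41.5 CPM (median 33.9). There the VSG libraries covered the whole weight-matched range.

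Over the regions, Asns was 1.34-fold higher in VSG than in weight-matched mice (log2 fold change 0.42, SE 0.10, adjusted p = 0.0437). It was lower in weight-matched than in sham ad libitum mice by a log2 fold change of -0.38 (SE 0.10, unadjusted p = 0.000578, adjusted p = 0.474), and VSG and sham ad libitum mice differed by 0.04 (SE 0.099, adjusted p = 1). By region the VSG against weight-matched value was 0.41 in duodenum (SE 0.17, adjusted p = 0.388), 0.78 in ileum (SE 0.17, adjusted p = 0.0568) and 0.08 in colon (SE 0.17, adjusted p = 1), and the interaction of surgery with region gave an unadjusted p of 0.0613 and an adjusted p of 1. The call was close to the threshold: beside the fits by mouse given above, the adjusted p was 0.0782 without the duodenum library of mouse 27. Without mouse 11, 12, 13, 16, 17, 18, 19, 21, 24, 25, 27, 28 or 29 the adjusted p lay between 0.0508 and 0.245, while the log2 fold change kept between 0.35 and 0.50 over all 17 omissions. Enterocyte markers in ileum had a median of 14355 CPM in weight-matched and 9518 CPM in VSG libraries, with overlapping ranges (6870 to 16913 and 4432 to 16266), and their part in the Asns value was not tested.

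**Figure D4:**
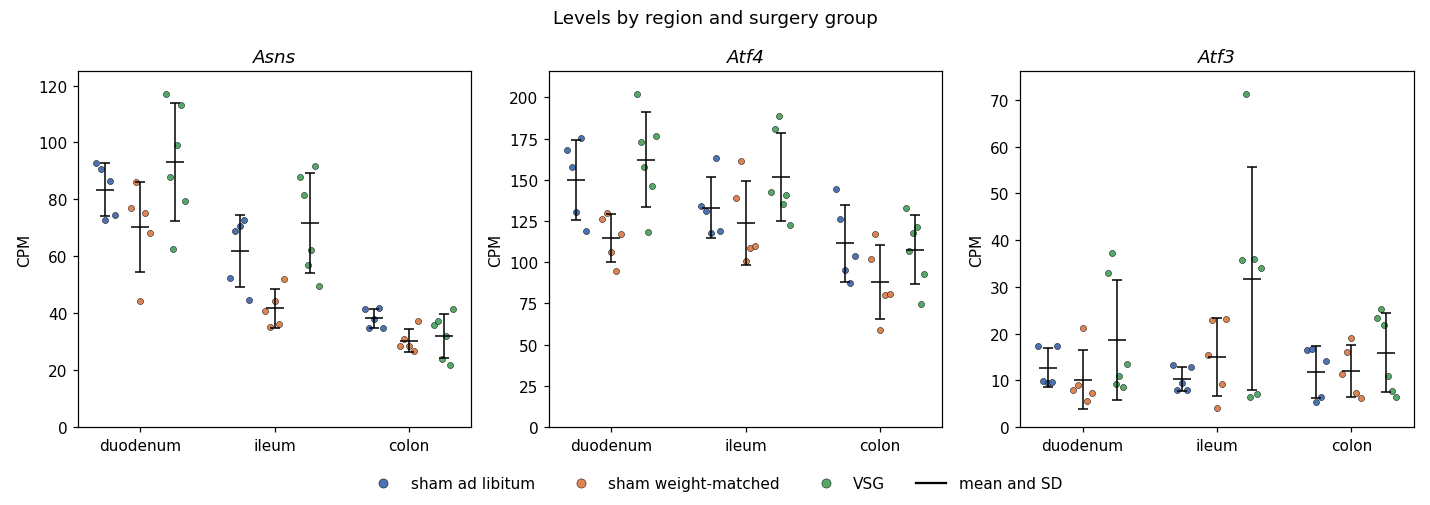
CPM (y axis, linear from zero) of Asns, Atf4 and Atf3 in each library by region (x axis) and surgery group (colour), with the mean and SD of the 5 or 6 libraries of a group. The 5 weight-matched ileum libraries of Asns lie at 35.2 to 52.1 CPM, and the Atf3 values of VSG ileum fall apart into 4 libraries at 34.0 to 71.3 CPM and 2 at 6.42 and 7.13 CPM.

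Atf4, the factor upstream of Asns, was ordered alike but did not pass. In duodenum its weight-matched values were 94.5, 106, 117, 126 and 129.8 CPM and its sham ad libitum values 119, 130.4, 157, 168 and 175 CPM, against 118 to 202 CPM (median 165) in the 6 VSG libraries, of which 5 lay above every weight-matched library. Over the regions VSG exceeded weight-matched mice by a log2 fold change of 0.36 (SE 0.093, adjusted p = 0.0821), and weight-matched mice were below sham ad libitum mice by -0.28 (SE 0.097, unadjusted p = 0.00605, adjusted p = 0.627). Without mouse 21, whose weight-matched ileum and colon libraries held the highest Atf4 of their groups (161 and 117 CPM), the first value was 0.46 (adjusted p = 0.0205), and DESeq2 gave 0.35 (adjusted p = 0.0412). Atf4 was not called under the other 9 of 10 alternatives (adjusted p up to 0.52) or without any of the other 16 of 17 mice (up to 0.276).

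Atf3 had the largest differences with VSG and the largest spread. In ileum it was 7.85, 7.93, 9.33, 12.8 and 13.3 CPM in sham ad libitum libraries and 4.12, 9.29, 15.4, 23.0 and 23.2 CPM in weight-matched libraries. The 6 VSG ileum libraries held 6.42, 7.13, 34.0, 35.8, 35.9 and 71.3 CPM, so that 4 lay above and 2 below every sham ad libitum library. Over the regions the log2 fold change was 0.89 (SE 0.29, adjusted p = 0.609) against sham ad libitum and 0.80 (SE 0.29, adjusted p = 0.301) against weight-matched mice, and in ileum alone 1.64 (SE 0.52, adjusted p = 0.519) against sham ad libitum mice. Without mouse 18 the values over the regions were 0.57 and 0.48.

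No call was made for the other members with surgery. Hspa5 was 0.15 higher in log2 fold change in VSG than in weight-matched mice (SE 0.068, adjusted p = 0.464), Sdf2l1 0.12 (SE 0.13) and Herpud1 0.07 (SE 0.076). For Xbp1 the value was 0.06 (SE 0.058), for Ddit3 0.12 (SE 0.18), for Dnajb9 -0.14 (SE 0.097) and for Trib3 -0.36 (SE 0.31), with adjusted p from 0.678 to 0.89. Against sham ad libitum mice, over the regions, these 7 genes lay between -0.19 and 0.20, with adjusted p from 0.991 to 1.

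Within single regions, 0 of 90 tests of a member passed by edgeR, with 10 at an unadjusted p under 0.05. Of all genes, 2.45% to 8.71% had such a p in the single comparisons. DESeq2 called 1 member (Asns, VSG against weight-matched, ileum, adjusted p = 0.0183) and limma voom 0. Besides Asns, Atf4 and Atf3, those at an unadjusted p under 0.05 were Sdf2l1 in ileum (VSG against weight-matched, log2 fold change 0.56, SE 0.23, adjusted p = 0.685) and Hspa5 in colon (the same comparison, 0.25, SE 0.12, adjusted p = 1). Trib3 had wide values, with log2 fold changes of -0.89 (SE 0.49, adjusted p = 0.825) between VSG and weight-matched mice in ileum, and of 0.96 (SE 0.52, adjusted p = 0.678) in ileum and -1.05 (SE 0.58, adjusted p = 1) in colon between weight-matched and sham ad libitum mice. Of all genes, VSG against sham ad libitum called 0% in each region, VSG against weight-matched 0.225% in duodenum, 0.0463% in ileum and 0.0595% in colon, and weight-matched against sham ad libitum 0% in duodenum and ileum and 0.0132% in colon. The interaction of surgery with region called 0 members and 0% of genes by edgeR, with 0 members at an unadjusted p under 0.05, beside 4.9% of all genes. DESeq2 and limma voom called 0 members.

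Of the lists of related genes, 7 of 8 had 0 genes called in all of the surgery comparisons averaged over regions. The exception was the tRNA synthetases, of which 1 of 12 was called, Mars, the synthetase for methionine, with means of 41.2 CPM in VSG and 28.9 CPM in weight-matched mice (log2 fold change 0.48, SE 0.11, adjusted p = 0.0436). Mars was called under 6 of 10 alternatives, with an adjusted p of 0.405 with the mouse as a random effect and 0.477 on counts summed per mouse, and on omission of 8 of 17 mice, being lost without mouse 11, 12, 16, 19, 21, 25, 27, 28 or 31 (adjusted p 0.052 to 0.139). The list as a whole had a median log2 fold change of 0.19 in that comparison and -0.12 between the sham groups. Mars shares bases with Ddit3 on the opposite strand, and the Ddit3 value in the same comparison was 0.12 (SE 0.18, adjusted p = 0.89).

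The 16 immediate early and heat-shock genes known to respond to cell dissociation moved with some members from library to library. Their summed level was 932 to 1961 CPM in weight-matched, 961 to 2351 CPM in sham ad libitum and 1151 to 4524 CPM in VSG libraries. In VSG ileum it was 4524 CPM in mouse 18, which had the highest Atf3, 1759 to 1899 CPM in mice 11, 25 and 30, and 1163 and 1254 CPM in mice 22 and 28, which had the lowest Atf3. The list had 0 of 16 genes called with surgery and a median log2 fold change of 0.53 against sham ad libitum and 0.69 against weight-matched mice, and its part in the Atf3 and Atf4 values was not tested.

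**Figure D5:**
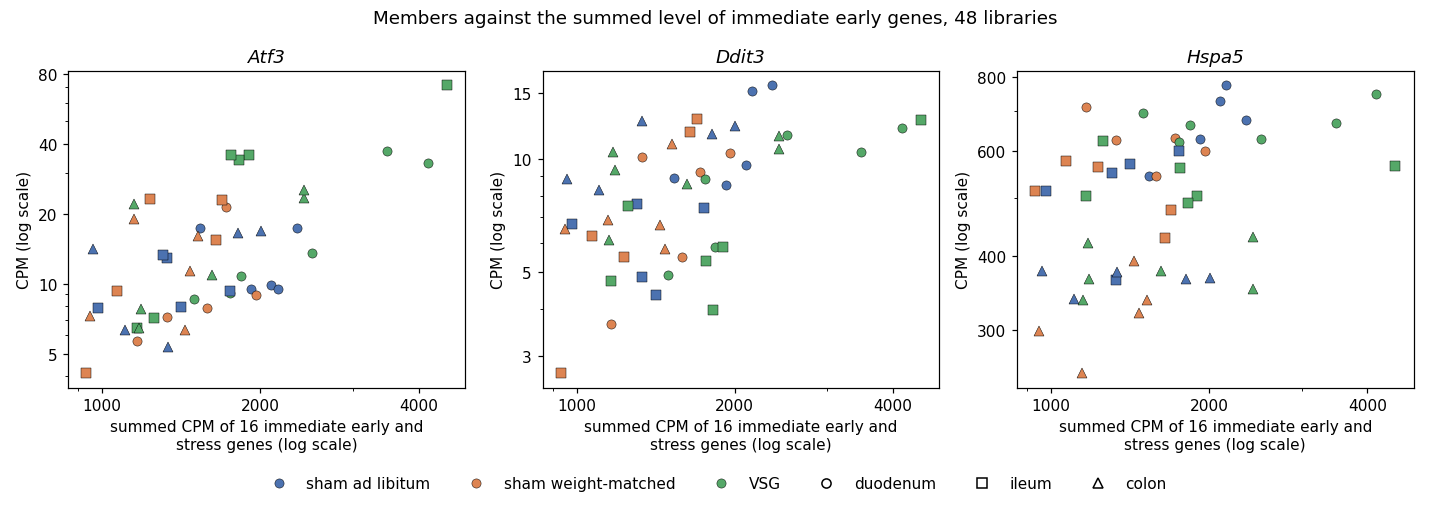
CPM of Atf3, Ddit3 and Hspa5 (y axes, log scale) against the summed CPM of 16 immediate early and stress genes (x axis, log scale) in 48 libraries, coloured by surgery group and shaped by region. Atf3 climbs with the sum to 71.3 CPM at a sum of 4524 CPM, while Hspa5 shows little relation to it (correlation within groups 0.126).

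After the 9 group means were removed, the correlation over the 48 libraries with this summed level was 0.695 for Atf3, 0.632 for Ddit3 and 0.513 for Atf4, but 0.206 for Asns, 0.126 for Hspa5 and 0.0128 for Xbp1. Cell type markers went with some members as well. Atf3 had a correlation of 0.59 with the summed markers listed as colonocyte. Krt20 had the largest mean of that list in each region, at 1124 CPM in duodenum, 1837 CPM in ileum and 1527 CPM in colon. Aqp8 of the same list had means of 0.548, 0.104 and 51.96 CPM and was at 0 in 17 of the 48 libraries. Atf4 had 0.457 and Sdf2l1 -0.51 with the enteroendocrine markers. Asns had 0.38 with enteroendocrine, -0.374 with enterocyte and -0.412 with Paneth markers. These correlations include the sham weight-matched duodenum library of mouse 27, with the marker sums given above. It held the highest Sdf2l1 (38.2 CPM) and the lowest Asns (44.4 CPM) of its group, and its weight here was not tested. The part of all these markers in the members' values was not tested. The correlations are descriptions, since libraries of a mouse share the animal and all share the scaling. Among the members themselves, Ddit3 went with Atf4 (0.525) and Atf3 (0.422), and Hspa5 with Asns (0.523), Dnajb9 (0.418) and Xbp1 (0.355). Xbp1 also went with Asns (0.448) and Dnajb9 with Sdf2l1 (0.356), whereas Atf4 and Asns had 0.163 and Atf4 and Trib3 -0.387. Over the 45 pairs the median was 0.0825, and 26 pairs were above zero.

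The genes most like a member within groups were taken among those with a mean of at least 10 CPM. For Hspa5 they were Hyou1 (0.563), an ER chaperone of the Hsp110 type, Cdc27 (0.546), the ER chaperone Hsp90b1 (0.54), Tardbp (0.538) and Aars (0.535). For Ddit3 they were Junb (0.65), Hip1r (0.644), Jun (0.64), Dusp1 (0.638) and Golga2 (0.638), of which Junb, Jun and Dusp1 stand in the immediate early list. For Asns they were the disulfide isomerase Pdia3 (0.604), Serpini1 (0.594), Atf5 (0.577), Tac1 (0.565) and Cct8 (0.564).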

How the data were processed

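RNA from sorted NeuroD1-positive cells (2 ng per library, a stranded total RNA kit, single reads of 50 bases) was sequenced in 48 libraries of 17 mice, at most 1 per mouse and region. Every region was present for 15 mice, while mouse 17 gave duodenum only and mouse 24 ileum and colon only. Counts summed per mouse, an alternative named below, used those 15 mice. The authors aligned the reads to GRCm38 with STAR (2.5.1 in the submitters' processing notes, which also name CASAVA) and deposited whole-number counts per gene of Ensembl release 91, without normalization. Whether counting used the strand is not given in the sources used here. Groups, regions and mouse numbers came from the labels. For mouse 12 the ileum and colon description codes are crossed against the tissue labels. The tissue labels were used, and enterocyte markers summed to 12693 CPM in its ileum and 576 CPM in its colon library (others 4432 to 16913 and 415 to 936). Identifiers were matched to GENCODE M21 for 53360 of 53465 genes.

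The members and lists were chosen with earlier results of these data known. All 10 members are named in every comparison, up to 2 genes per direction of largest fold change past the threshold from each list, and the 5 genes most like Hspa5, Ddit3 and Asns; Ern1, Eif2ak3 and Atf6 and single cell type markers were named outside this rule after their values were seen. Counts were fitted in edgeR 4.0.16 (R 4.3.3) with filterByExpr, TMM, 1 mean for each of 9 groups of surgery and region, and a robust quasi-likelihood fit, with contrasts averaged over regions or surgery groups. Standard errors were obtained from the log2 fold change and its F statistic. Log2 CPM for correlations had a prior count of 2. The fits were tested on simulated counts. No library duplicated another of its group (lowest chi-square per gene 8.14 over 105 pairs). Libraries of the same number come from the same mouse in different regions, and 26 of 46 such pairs had deviations correlated over 0.1 (median 0.105). Surgery groups hold different mice and are not paired. Alternatives were DESeq2 1.42.0, its size factors, no filter (40391 genes) and a stricter filter (12977 genes), limma 3.58.1 (voom, random mouse effect, correlation 0.128), a fixed mouse block in edgeR, counts summed per mouse, only the libraries compared, the second library index as a covariate, omission of the mouse 12 ileum and colon or the mouse 27 duodenum libraries, and omission of each mouse. Promoter sequences are from RefSeq (GRCm38.p6). Floors cover counting error only and are given before TMM scaling.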

Additional observations from a re-analysis of the deposited data

Results flagged for a closer look

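For each member, a library standing apart within its group of 5 or 6 was sought by the gap to its nearest neighbour as a share of the range of log2 CPM. This marked 4 of 90 groups, where chance marks about 1 in 20. Trib3 was 15.61 CPM in the sham weight-matched duodenum library of mouse 27, against 2.351 to 3.65 CPM in the other 4 libraries of the group. Herpud1 was 130.9 CPM in the sham weight-matched colon library of mouse 27, against 93.08 to 97.4 CPM. Ddit3 was 10.94 CPM in the sham weight-matched colon library of mouse 21, against 5.787 to 6.909 CPM. Hspa5 was 338.2 CPM in the sham ad libitum colon library of mouse 24, against 366.2 to 377.6 CPM. The duodenum library of mouse 27 also had the lowest summed enteroendocrine markers and the highest summed enterocyte markers of the series, and their part in its Trib3 level was not tested.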

How the results depend on the processing

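Under 10 alternatives the count of called members stayed at 2 to 4 for ileum against duodenum, 5 to 7 for colon against duodenum and 4 to 6 for colon against ileum, and omission of each mouse gave 3 to 4, 7 and 5 to 6. With the mouse as a fixed replicate block in edgeR these counts were 4, 7 and 6, and in those comparisons this block changed no call but that of Ddit3 given above. With the second library index as a covariate they were 2, 5 and 4. Of all 15126 genes, 1713, 4236 and 5720 were then called, against 5110, 8322 and 7436 in the main fit. In that covariate fit Xbp1 was at -0.17 (adjusted p = 0.363) and Atf4 at -0.09 (0.785) in colon against duodenum. Sdf2l1 was at -0.43 (0.0566) in colon against ileum and Asns at -0.44 (0.122) in ileum against duodenum, and the cause was not tested. For VSG against weight-matched mice the count of 1 became 2 with DESeq2 and 0 with DESeq2's size factors, limma voom with random mouse effects as the block, counts summed per mouse, only the libraries compared, without mouse 12's libraries of ileum and colon, and without the duodenum library of mouse 27. It was 0 to 1 on omission of a mouse, where without mouse 21 the 1 member called was Atf4 and no longer Asns. Within single regions the count of 0 became 1 with DESeq2, without the duodenum library of mouse 27 and with the index covariate, and was 0 to 1 on omission of a mouse (Asns in ileum, VSG against weight-matched). VSG against sham ad libitum, the sham groups and the interaction gave 0 under every alternative run and on omission of any mouse. Of 3958 recomputed member values, 142 changed sign, 0 of them for a member called in that comparison. The counts of Trib3 and Ddit3 limit what can be seen of them.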

Other observations

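The immediate early and heat-shock list, read above as a covariate, gave these values between regions. Of its 16 genes, 8 were lower and 1 higher in ileum than in duodenum (33.8% of all genes called, 16.6% lower), 7 were lower and 1 higher in colon than in duodenum (55% called, 28.3% lower), and 2 were lower and 1 higher in colon than in ileum (49.2% called, 25.4% lower). Zfp36, which destabilises short-lived mRNAs, had means of 59.4 CPM in colon and 143 CPM in duodenum (log2 fold change -1.27, SE 0.23, adjusted p = 8.99e-06 in edgeR's quasi-likelihood test), and the phosphatase Dusp1 24.6 and 54.1 CPM (-1.02, SE 0.29, adjusted p = 0.00311). The nuclear receptor Nr4a1 ran the other way (log2 fold change 1.25, SE 0.29, adjusted p = 0.00031).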
